A study of Mus musculus with 4 samples.

Results

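Transcripts of 9 structural proteins of the Z-disc were measured in the soleus muscles of *mdx* mice: *Actn2*, *Actn3*, *Myoz1*, *Myoz2*, *Myoz3*, *Myot*, *Ldb3*, *Tcap* and *Flnc*. The members were listed by gene symbol, with earlier results of these data known, and all 9 were found by an exact match of the symbol among the 24054 symbols of the expected count table. The mice were female, of the C57BL/10ScSn background, and carried the *mdx* mutation of the dystrophin gene in both groups, so that no muscle with intact dystrophin entered the comparison. One group (mCDC, n = 2 libraries) had been infused through the femoral vein each month with mouse cardiosphere-derived cells, which had been grown out of a single wild-type heart, and the other (vehicle, n = 2 libraries) with the culture medium alone. Infusions began at 8 weeks of age and the muscles were taken at the 12-month endpoint. The comparison asks whether repeated infusion of these cells changed the transcripts of the Z-disc. The records do not say that the 2 libraries of a group came from separate mice, so the p-values measure the spread between these libraries.

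The Z-disc is the plate that bounds each sarcomere and anchors the actin thin filaments of neighbouring sarcomeres. Alpha-actinins cross-link the filaments there, calsarcins (the myozenins), myotilin and the PDZ and LIM domain protein of *Ldb3* bind alpha-actinin, telethonin (*Tcap*) caps the end of titin, and filamin C (*Flnc*) cross-links actin at the disc and at the membrane. Mutations in several of these genes cause myofibrillar or limb-girdle myopathies, and some members differ between fast and slow fibres. The soleus of the mouse holds both kinds of fibre.

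Sequence upstream of the start is given for 4 of the 9 members, from the RefSeq promoter table of GRCm38.p6. These 4 were also the members with each mCDC library above each vehicle library, but they were not chosen for that order. The sequences are shown so that the start regions of these members can be set side by side. Each window holds 250 bases before the start and 50 from it, read 5′ to 3′ on the strand of the gene, with motif matches in capitals. The windows lie at chr13:12340683-12340982 on the minus strand for *Actn2*, at chr3:123034938-123035237 on the minus strand for *Myoz2*, at chr14:34588632-34588931 on the minus strand for *Ldb3* and at chr6:29433006-29433305 on the plus strand for *Flnc*. For *Ldb3* and *Flnc* 2 windows were listed, and the window nearest to the annotated gene start is given.
Actn2: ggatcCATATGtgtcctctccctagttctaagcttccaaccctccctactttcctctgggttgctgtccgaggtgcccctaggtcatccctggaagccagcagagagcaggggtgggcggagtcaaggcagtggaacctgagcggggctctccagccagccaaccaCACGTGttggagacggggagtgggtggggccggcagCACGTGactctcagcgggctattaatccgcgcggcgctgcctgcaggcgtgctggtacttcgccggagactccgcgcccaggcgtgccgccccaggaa
Myoz2: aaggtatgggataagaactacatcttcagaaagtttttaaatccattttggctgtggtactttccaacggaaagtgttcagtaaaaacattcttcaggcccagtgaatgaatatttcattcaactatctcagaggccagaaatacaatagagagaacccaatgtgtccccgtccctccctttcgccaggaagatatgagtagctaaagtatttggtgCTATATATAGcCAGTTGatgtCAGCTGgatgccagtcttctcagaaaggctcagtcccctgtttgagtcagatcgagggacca
Ldb3: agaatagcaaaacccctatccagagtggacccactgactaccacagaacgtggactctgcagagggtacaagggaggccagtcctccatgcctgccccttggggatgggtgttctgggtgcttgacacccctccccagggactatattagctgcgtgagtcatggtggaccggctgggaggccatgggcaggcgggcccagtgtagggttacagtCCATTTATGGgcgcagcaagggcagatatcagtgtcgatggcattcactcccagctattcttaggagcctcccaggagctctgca
Flnc: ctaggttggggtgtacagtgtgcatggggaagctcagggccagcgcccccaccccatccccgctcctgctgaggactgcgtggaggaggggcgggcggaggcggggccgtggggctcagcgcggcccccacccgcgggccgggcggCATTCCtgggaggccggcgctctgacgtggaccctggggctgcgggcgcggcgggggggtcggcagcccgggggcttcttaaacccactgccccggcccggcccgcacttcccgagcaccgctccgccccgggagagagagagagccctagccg
5 motifs of muscle and general promoters were searched on both strands: the E-box (CANNTG), the MEF2 site, the CArG box, the MCAT element (CATTCC) and the TATA box (TATAAA). The *Actn2* window held 3 E-boxes, starting at positions -245, -84 and -48 from the start base. The *Myoz2* window held 2 E-boxes, at -22 and -12, and a MEF2 site at -33, and none of these matches overlapped. A CArG box at -35 was the match in the *Ldb3* window, and an MCAT element at -104 was the match in the *Flnc* window. Of the 32851 promoter windows of the table, 72.3% held an E-box, 0.557% the MEF2 site, 1.63% the CArG box, 14.7% the MCAT element and 13.6% the TATA box, which was in none of the 4 windows. Base composition ranged from 42.7% G and C in the *Myoz2* window to 76.3% in the *Flnc* window. These matches are a description of letters in a window, and no motif was found in all 4 windows.

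Each level is given in CPM, the count relative to the TMM-scaled total of its library, and levels of different genes are compared only as CPM per kilobase of transcript. Behind the CPM values stood between 2366 expected counts, for *Myoz3* in vehicle replicate 1, and 211928, for *Actn2* in mCDC replicate 1. *Tcap* had the highest level per length, 5054 CPM per kb on average over the 4 libraries, followed by *Actn2* at 2581 and *Myoz2* at 1654. *Myot* averaged 944 CPM per kb, *Ldb3* 554 and *Flnc* 489. The fast fibre members were lower, with 171 CPM per kb for *Actn3* and 164 for *Myoz1*, and *Myoz3* was lowest at 29.9. The ranges of *Tcap*, *Actn2*, *Myoz2* and *Myot* over the 4 libraries did not overlap one another. *Ldb3*, from 461 to 614 CPM per kb, overlapped its neighbour *Flnc*, from 323 to 795, and *Actn3*, from 78.8 to 323, overlapped *Myoz1*, from 115 to 221, so the order within these 2 pairs was not separated by the spread. *Flnc* also reached above the lowest level of *Myot*, 768 CPM per kb. The plot of levels by library shows this order. Levels per length rest on 1 transcript length per gene, and in whole muscle fewer fibres of a type and less RNA per fibre cannot be told apart.

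**Figure D1:**
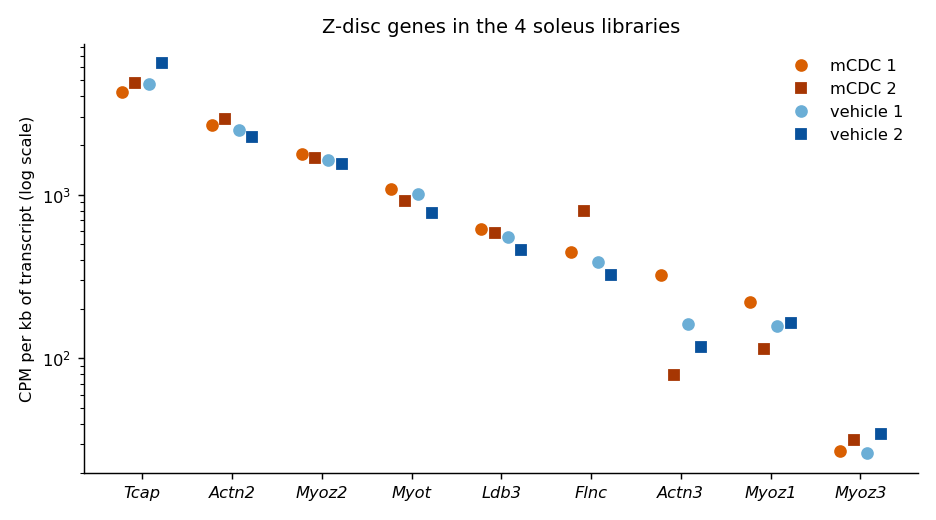
Level of the 9 Z-disc members in each of the 4 soleus libraries, in CPM per kb of transcript on a log axis, with genes ordered by their mean. *Tcap* averages 5054 CPM per kb and *Myoz3* 29.9, and the points of *Actn3* and *Flnc* are the most spread.

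*Actn2*, the alpha-actinin of all fibres and of the heart, was somewhat higher in both mCDC libraries, and *Actn3*, the alpha-actinin of fast fibres, differed more between the 2 mCDC libraries than between the groups. *Actn2* (chr13:12269426-12340760) had 8026 and 8771 CPM in mCDC replicates 1 and 2 and 7522 and 6793 CPM in vehicle replicates 1 and 2. Both mCDC libraries lay above both vehicle libraries, and the higher library of a group exceeded the lower by 1.09-fold in mCDC and 1.11-fold in vehicle. The log2 fold change was 0.23 (SE 0.20), which did not pass the test (adjusted p = 0.811, edgeR's quasi-likelihood test).

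*Actn3* (chr19:4861216-4877909) had 932 and 227 CPM in mCDC muscles and 471 and 341 CPM in vehicle muscles. The mCDC libraries were the highest and the lowest of the 4, a 4.1-fold gap, and enclosed both vehicle libraries, which differed by 1.38-fold. The log2 fold change was 0.52 (SE 0.52, adjusted p = 0.829), and which mCDC library was kept set its direction. Without mCDC replicate 1 the log2 fold change was -0.83 and passed the thresholds used for calls as lower, and without mCDC replicate 2 it was 1.2 and passed them as higher. *Actn3* reads were 11.6% and 2.59% of *Actn2* reads in mCDC muscles and 6.26% and 5.02% in vehicle muscles. The log2 ratio of *Actn3* to *Actn2* averaged -4.19 ± 1.53 (SD, n = 2) in mCDC and -4.16 ± 0.23 (SD, n = 2) in vehicle, a difference of -0.03 (two-sided exact permutation test, p = 1, where 2 against 2 libraries cannot give less than 0.333). Of the 31-base words of their transcripts, 1.54% for *Actn2* and 1.01% for *Actn3* also occurred in another gene.

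The calsarcins tie alpha-actinin to calcineurin, *Myoz2* in slow fibres and heart and *Myoz1* and *Myoz3* in fast fibres, and none of the 3 passed the test. *Myoz2* (chr3:123006206-123035015) had 2098 and 1979 CPM in mCDC muscles and 1915 and 1820 CPM in vehicle muscles. It was the steadiest member, with 1.06-fold between the mCDC libraries and 1.05-fold between the vehicle libraries, and its groups did not overlap. Its log2 fold change was 0.13 (SE 0.16, adjusted p = 0.858). *Myoz1* (chr14:20649107-20656540) had 285 and 148 CPM in mCDC muscles and 203 and 211 CPM in vehicle muscles. As with *Actn3*, mCDC replicate 1 was highest and mCDC replicate 2 lowest, with 1.93-fold between them against 1.04-fold in vehicle. The log2 fold change of *Myoz1* was 0.07 (SE 0.27, adjusted p = 0.969), and it ranged from -0.48 to 0.46 when each library was left out.

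The ratio of the fast to the slow calsarcin followed *Myoz1*. *Myoz1* reads were 13.6% and 7.47% of *Myoz2* reads in mCDC muscles and 10.6% and 11.6% in vehicle muscles. On the log2 scale this ratio averaged -3.31 ± 0.61 (SD, n = 2) in mCDC and -3.17 ± 0.09 (SD, n = 2) in vehicle, a difference of -0.14 (two-sided exact permutation test, p = 1, smallest possible 0.333). *Myoz3*, on chromosome 18, had 94.0 and 109 CPM in mCDC muscles and 90.3 and 118 CPM in vehicle muscles. Its groups overlapped and its log2 fold change was -0.04 (SE 0.17, adjusted p = 0.971), or 0.04 with pan-fibre scaling. The mCDC libraries of *Myoz3* lay in the opposite order to those of *Myoz1*, although both are fast fibre forms.

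Myotilin binds alpha-actinin, filamin C and actin. Its gene *Myot*, also on chromosome 18, had 2394 and 2015 CPM in mCDC muscles and 2240 and 1696 CPM in vehicle muscles. The groups overlapped, because mCDC replicate 2 lay below vehicle replicate 1. The log2 fold change was 0.16 (SE 0.20, adjusted p = 0.857) and was -0.02 without vehicle replicate 2.

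*Ldb3*, also called ZASP or Cypher, holds alpha-actinin and signalling proteins at the disc, and *Tcap* encodes the smallest of these proteins. *Ldb3* (chr14:34526603-34588682) had 3142 and 3008 CPM in mCDC muscles and 2831 and 2360 CPM in vehicle muscles. The groups did not overlap, and the log2 fold change was 0.24 (SE 0.18, adjusted p = 0.776). *Tcap* (chr11:98383811-98384953) had 4041 and 4595 CPM in mCDC muscles and 4524 and 6005 CPM in vehicle muscles. It had the lowest fold change of the members, but mCDC replicate 2 lay just above vehicle replicate 1, so the groups overlapped. The log2 fold change was -0.29 (SE 0.21, adjusted p = 0.776) and stayed negative, from -0.47 to -0.07, when each library was left out.

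*Flnc*, which encodes filamin C, was the member that rose in mCDC muscles. *Flnc* (chr6:29433256-29461883) had 3987 and 7106 CPM in mCDC replicates 1 and 2 and 3486 and 2891 CPM in vehicle replicates 1 and 2. Both mCDC libraries lay above both vehicle libraries, and most of the distance came from mCDC replicate 2, with 1.78-fold between the mCDC libraries and 1.21-fold between the vehicle libraries. The mean was 5546 ± 2206 CPM (SD, n = 2) in mCDC and 3188.5 ± 421 CPM (SD, n = 2) in vehicle, a 1.74-fold change. The log2 fold change was 0.80 (SE 0.28), and its unadjusted p of 0.0222 passed the threshold used for calls, while its adjusted p was 0.685. By p, *Flnc* ranked 436 of the 13652 genes tested. The call was lost without mCDC replicate 2, where the log2 fold change was 0.32, and without vehicle replicate 2, where it was 0.67. Without mCDC replicate 1 it was 1.16 and without vehicle replicate 1 it was 0.94, both called. In the other 9 alternatives *Flnc* was called each time, with log2 fold changes from 0.75 to 0.92 and adjusted p-values from 0.176 (DESeq2) to 0.774. No other gene shared a 31-base word with the *Flnc* transcripts, and no exon of another gene overlapped any member.

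**Figure D2:**
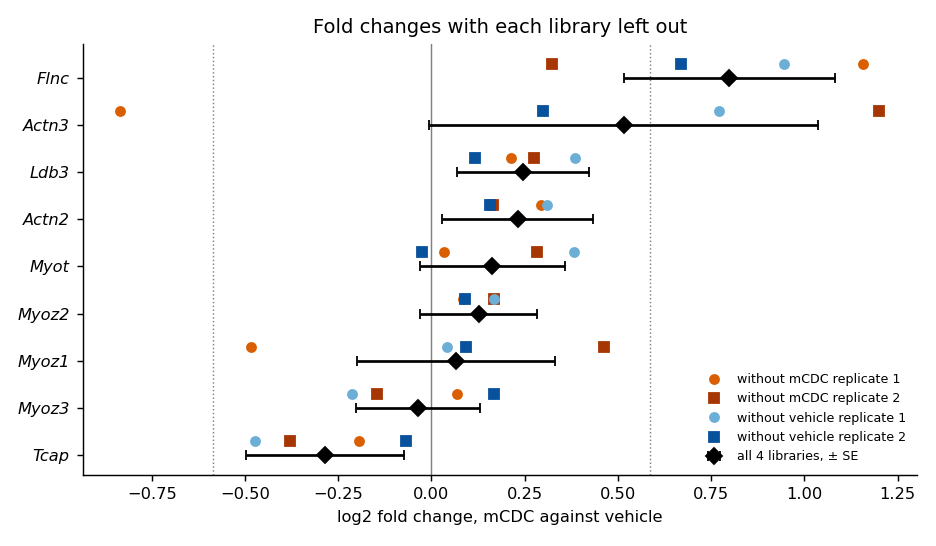
Log2 fold change of each member, mCDC against vehicle, from edgeR's quasi-likelihood fit of all 4 libraries (diamonds, bars ± SE) and with each library left out (coloured points), with dotted lines at a 1.5-fold change. *Flnc* lies at 0.80 with leave-one-out values from 0.32 to 1.16, and *Actn3* moves from -0.83 to 1.2 with the mCDC library left out.

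All 9 members passed the filter on low counts, and 1 was called higher, 0 lower. Calls required more than a 1.5-fold difference and an unadjusted p below 0.05, as in the methods of the study. Among all 13652 genes tested 4.0% were called, 1.26% higher and 2.74% lower. The count of 1 of 9 members rests on *Flnc* alone. The share of calls that were higher was 31.5% (172 higher, 374 lower) with TMM scaling and 47.9% (256 higher, 279 lower) when libraries were scaled on a list of pan-fibre genes. The median log2 fold change of the members was 0.16, against -0.01 for all genes tested, and 7 of 9 members had a positive fold change, against 6609 of the 13652 genes. With pan-fibre scaling 8 members were positive, and with transcript length and GC trends removed 6 were. Both mCDC libraries lay above both vehicle libraries for 4 members (*Actn2*, *Myoz2*, *Ldb3* and *Flnc*), against 19.2% of all genes tested, and below for 0 members, against 19.4%.

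The number of members called depended on the library left out. Without mCDC replicate 1, *Flnc* was called higher and *Actn3* lower, against 6.73% of all genes called. *Actn3* alone was called without mCDC replicate 2, as higher, against 2.49% of genes. *Flnc* alone was called without vehicle replicate 1, against 7.92% of genes, and 0 members were called without vehicle replicate 2, against 4.1%. After Benjamini-Hochberg adjustment 0% of the genes tested with edgeR's quasi-likelihood test, and so 0 members, had an adjusted p under 0.05. At an unadjusted p under 0.05 there were 947 genes, and edgeR's likelihood ratio test and DESeq2 gave 66 and 48 genes with an adjusted p under 0.05. *Flnc*, with adjusted p-values of 0.301 and 0.176 in those tests, was not among them.

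The members followed different orders over the libraries. *Flnc* was at 0.79 above its own mean of log2 CPM in mCDC replicate 2, at -0.04 in mCDC replicate 1, and at -0.24 and -0.51 in vehicle replicates 1 and 2. *Csrp3*, *Xirp1*, *Hspb1*, *Ankrd2* and *Rcan1*, which are other genes of the Z-disc, were likewise highest in mCDC replicate 2, at 0.80 to 1.13 above their means. These were picked from the genes called higher in the lists described below. Other genes of those lists, among them *Pdlim5*, *Nrap*, *Synpo2* and *Synm*, were not highest in that library. *Actn3* was at 1.12 in mCDC replicate 1 and at -0.92 in mCDC replicate 2, and *Myoz1* at 0.47 and -0.48. *Actn2*, *Ldb3*, *Myoz2* and *Myot* stayed within 0.29 of their means, and *Tcap* was highest, at 0.34, in vehicle replicate 2.

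**Figure D3:**
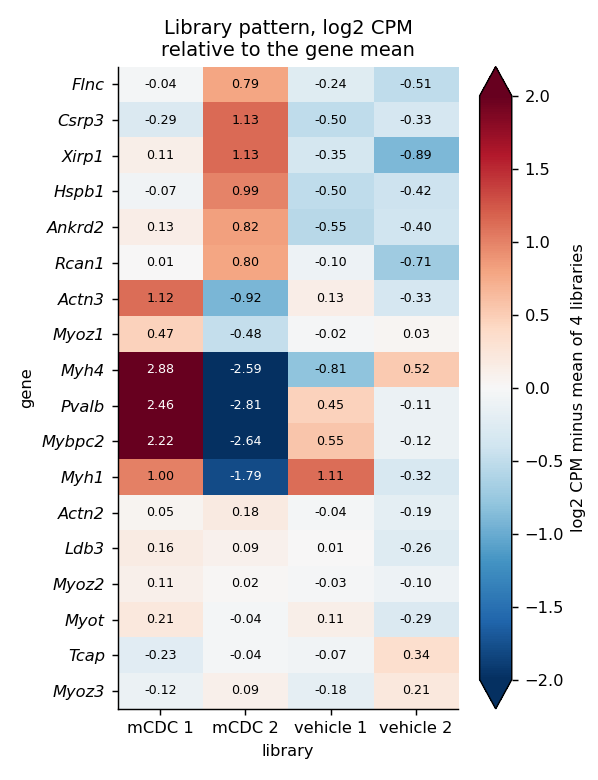
Log2 CPM of members and of genes named beside them in each library, minus the mean of the gene over the 4 libraries (columns: libraries; colour scale ends at 2 in either direction). *Flnc* and *Xirp1* are highest in mCDC replicate 2, at 0.79 and 1.13, while *Actn3* and the fast fibre genes drawn are highest in mCDC replicate 1, except *Myh1*. The genes beside the members were picked from their lists. The fast fibre genes *Myh2*, *Tnnt3*, *Tnni2* and *Tnnc2*, which were lower in mCDC replicate 1 than in mCDC replicate 2, are not drawn.

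Of 11 fast fibre genes, 3 had the same order over the libraries as *Actn3* and 1 the same as *Myoz1*, while 7 were higher in mCDC replicate 1 than in mCDC replicate 2 and 4 were lower. The libraries ranked for *Actn3*, from high to low, as mCDC replicate 1, vehicle replicate 1, vehicle replicate 2 and mCDC replicate 2, as for *Pvalb* (parvalbumin), *Mybpc2* (fast myosin binding protein C) and *Atp2a1* (the fast calcium pump). *Pvalb* had 648 and 16.8 CPM in mCDC muscles and 161 and 109 CPM in vehicle muscles. *Mybpc2* had 344 and 11.8 CPM in mCDC and 108 and 67.8 CPM in vehicle. *Myoz1* shared its order with *Myh4*, the myosin heavy chain of the fastest fibres, which had 2096 and 47.5 CPM in mCDC and 163 and 411 CPM in vehicle. *Myh2*, the myosin of the less fast fibres that predominate among the fast fibres of the soleus, had 6749 and 9617 CPM in mCDC and 7617 and 10860 CPM in vehicle. *Myh2* and the fast troponin genes *Tnnt3*, *Tnni2* and *Tnnc2* were the 4 that were lower in mCDC replicate 1, all 4 highest in vehicle replicate 2, and *Myh1* was highest in vehicle replicate 1. Of the fast fibre genes 0 were called, with a median log2 fold change of 0.05, and their summed level ranged from 32119 to 38637 CPM in mCDC and from 31782 to 39019 CPM in vehicle. Of 9 slow fibre genes 0 were called, with a median of 0.20 and a summed level from 78397 to 90745 CPM in mCDC and from 74038 to 88186 CPM in vehicle. Of 12 pan-fibre genes 0 were called, with a median of -0.12. What part the fibre content of each muscle had in the values of *Actn3* and *Myoz1* was not tested.

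Other genes of the Z-disc were described beside the members, 43 in 4 lists by role, of which 42 were tested. Of these, 9 rose and 1 fell in mCDC muscles by the thresholds for calls, against 1.26% and 2.74% of all genes tested, with a median log2 fold change of 0.20, 32 positive and 10 negative. Both mCDC libraries lay above both vehicle libraries for 22 of the 42 genes and below for 4, against 19.2% and 19.4% of all genes tested. The number called was 2 without mCDC replicate 2, namely *Xirp1* and *Ankrd2*, 6 without vehicle replicate 2, and 5 with the length and GC trend removed. Without vehicle replicate 1 the calls of *Csrp3*, *Synm*, *Cryab*, *Hspb1* and *Ankrd1* were lost, with log2 fold changes of 0.93, -0.46, 0.62, 0.98 and 0.78. Without vehicle replicate 2 those of *Csrp3*, *Rcan1*, *Murc* and *Ankrd1* were lost, with log2 fold changes of 1.09, 0.56, 0.42 and 0.67. Adjusted p-values of the 10 called genes lay between 0.567 and 0.713. With the length and GC trend removed, the calls of *Csrp3* (0.91), *Fhl3* (0.55), *Synm* (-0.46), *Cryab* (0.58) and *Ankrd1* (0.69) were lost. DESeq2 did not call *Csrp3* (1.02) or *Ankrd1* (0.73), and *Synm* (-0.55) was not called with pan-fibre scaling. *Ankrd1* also lost its call with the replicate block (0.62) and without the low count filter (0.72). *Nebl*, with at most 0.109 CPM, was not tested.

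Xin (*Xirp1*), which binds filamin C, rose by 1.3 on the log2 scale (SE 0.33, adjusted p = 0.571), from 814 and 557 CPM in vehicle to 1118 and 2267 CPM in mCDC. Like *Flnc* it was highest in mCDC replicate 2, without which its log2 fold change was 0.71 and still called, and it was the sole called gene of 14 tested filament anchors, whose median was 0.02. *Igfn1*, of the same list, had 32.5 and 30.3 CPM in mCDC and 45.6 and 47.4 CPM in vehicle, a log2 fold change of -0.57 that did not reach 1.5-fold. The 8 LIM and PDZ-LIM genes had a median of 0.37, and all 8 had both mCDC libraries above both vehicle libraries, as 19.2% of all genes tested did. *Csrp3* (muscle LIM protein) rose by 1.0 (SE 0.38, adjusted p = 0.708), with 762.5 and 2045 CPM in mCDC and 658 and 741 CPM in vehicle, but by 0.13 without mCDC replicate 2. *Fhl3* rose by 0.68 (SE 0.16, adjusted p = 0.567), with 235 and 313 CPM in mCDC and 170 and 173 CPM in vehicle, and by 0.45 without mCDC replicate 2.

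Small heat shock proteins that bind desmin and filamins were among the 9 genes of the desmin network and its chaperones, of which 2 were called higher and 1 lower, with a median of 0.25. *Cryab* rose by 0.68 (SE 0.20), with 4742 and 6119 CPM in mCDC and 3231 and 3542 CPM in vehicle, and by 0.49 without mCDC replicate 2. *Hspb1* rose by 1.01 (SE 0.30), with 674 and 1405 CPM in mCDC and 500.3 and 530.2 CPM in vehicle. Without mCDC replicate 2 the log2 fold change of *Hspb1* was 0.39 and was not called, and it also lost its call without vehicle replicate 1. *Synm*, the intermediate filament protein synemin, fell by 0.62 (SE 0.16), with 344 and 299.8 CPM in mCDC and 547 and 445 CPM in vehicle. Among 11 signalling genes of the disc, with a median of 0.17, 4 were called higher: the calcineurin inhibitor *Rcan1* (0.83), *Murc* (0.62) and the titin-binding ankyrin repeat genes *Ankrd1* (0.72) and *Ankrd2* (0.99). *Ankrd1* had 118 and 256 CPM in mCDC and 118 and 109.5 CPM in vehicle, and its log2 fold change was 0.06 without mCDC replicate 2. *Rcan1* and *Murc* had log2 fold changes of 0.39 and 0.44 without that library and were not called. *Ankrd2* kept its call with each library left out, as did *Xirp1*. The calcineurin genes *Ppp3ca*, *Ppp3cb* and *Ppp3r1*, whose product binds the calsarcins, had log2 fold changes of -0.17, -0.18 and 0.07 and were not called.

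**Figure D4:**
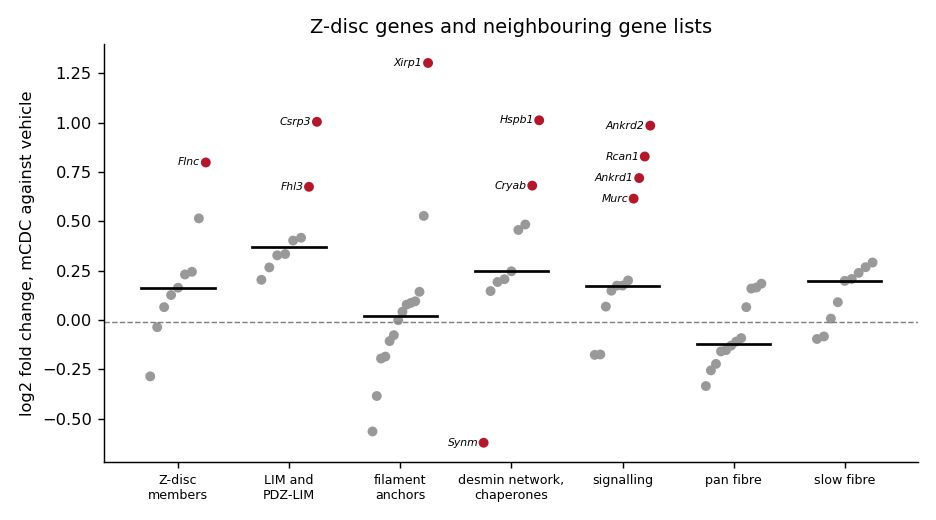
Log2 fold change, mCDC against vehicle, of each tested gene of the Z-disc lists and of the pan-fibre and slow fibre lists (points; red, called; black line, median of the list; dashed line, median of all genes tested). *Flnc* is the called member at 0.80, and the LIM and PDZ-LIM list has the highest median, 0.37, of the lists drawn.

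*Actn1* and *Actn4*, alpha-actinins of non-muscle cells, had log2 fold changes of -0.12 and 0.02, and *Flna*, the filamin of most other cells, of -0.14. None of the 3 was called, and they had at most 81.5 CPM in any library.

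The mean log2 CPM of the 9 members was 10.60 and 10.37 in mCDC muscles and 10.37 and 10.28 in vehicle muscles. Among 74 genes of the other Z-disc and fibre lists, the 5 with the highest Pearson correlation to this mean over the 4 libraries were *Tnnt1* (r = 0.996), *Casq1* (0.979), *Tnni1* (0.958), *Tnnc1* (0.935) and *Acta1* (0.925). These values describe 4 points that share library depth and scaling with the members.

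Markers of other cells bear on how these bulk values are read. The slow myosin *Myh7*, which marks the soleus, had 38237 to 47467 CPM. Of 6 heart markers 4 were tested and 0 called, and *Myl7* had 0 CPM in all 4 libraries and *Nppa* at most 0.255. The heart list summed to 203 CPM in either mCDC library and to 206 CPM in either vehicle library. *Myog*, of 5 genes of regenerating fibres, rose by 1.07 (adjusted p = 0.612), with 32.6 and 63.3 CPM in mCDC and 21.3 and 24.4 CPM in vehicle. It was highest in mCDC replicate 2, as was *Flnc*, and its log2 fold change ran from 0.51 to 1.47 with each library left out. The other genes of that list were not called: *Myh3* (-0.15), *Myh8* (-0.12), *Gm7325* (-0.55) and *Tmem8c* (0.08), and the list median was -0.12. The list summed to 515 to 524 CPM in mCDC and 517 to 569 CPM in vehicle. The fibroblast list (1 of 5 called, *Pdgfra*, lower) summed to 267 to 310.4 CPM in mCDC and 292 to 487 CPM in vehicle, and the endothelial list (0 of 4 called) to 80.4 to 100.2 and 85.3 to 178 CPM, both highest in vehicle replicate 2. Smooth muscle (0 of 4 called) summed to 147 to 159 CPM in mCDC and 116 to 151 CPM in vehicle, and Schwann cell genes (0 of 3 called) to 26.96 to 30.7 and 26.97 to 44.2 CPM. Adipocyte genes (0 of 3 called) summed to 31.6 to 33.4 CPM in mCDC and 15.5 to 55.2 CPM in vehicle. Of 3 macrophage genes tested, *Cd68* was called higher and *Csf1r* lower, and the genes had sums of 13.2 to 23.8 CPM in mCDC and 12.4 to 17.9 CPM in vehicle. *Cd68* had 4.13 and 15.4 CPM in mCDC and 2.71 and 4.15 CPM in vehicle, so its groups overlapped, and its log2 fold change of 1.49 was 0.27 without mCDC replicate 2. Of 3 tendon genes *Scx* was called higher and *Tnmd* and *Fmod* lower, with sums of 52.0 to 77.7 CPM in mCDC and 51.4 to 69.6 CPM in vehicle. With each library left out, the log2 fold change ran from -1.11 to -0.23 for *Pdgfra*, from -0.96 to -0.30 for *Csf1r* and from -1.55 to -0.54 for *Fmod*. The part of these cells in the values of the members was not tested.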

How the data were processed

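Total RNA was purified from soleus muscle and sequenced as 4 libraries, 2 in each group. The authors mapped reads to transcripts and deposited RSEM expected counts per gene symbol, not normalized. The submitters' processing notes name Bowtie2 2.1.0, RSEM 1.2.15 and mm10. RSEM divides reads that fit several genes, and 15.7% of the deposited values were not whole. Methods and labels name different library kits (xGen, TruSeq stranded), and strand use in counting is not given in the sources used here. Expected counts summed to 22481391 to 27187425 per library, a 1.21-fold range.

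Counts were rounded, filtered with filterByExpr, scaled by TMM and tested over 13652 genes with edgeR 4.0.16 (R 4.3.3), quasi-likelihood F-test, Benjamini-Hochberg adjustment. Log2 CPM used a prior count of 2. Each SE is the size of the log2 fold change over the root of its F statistic. The procedure was tested on simulated data. Annotation was GENCODE M21 of GRCm38: 22750 symbols were paired by their own name, 935 by an older one, and 369 not.

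Members and lists were chosen with earlier results of these data known. The text names all members, each called gene of the other Z-disc lists and the 2 with the largest fold change in each direction, *Ppp3* genes and marker genes added after their values were seen, and the 5 genes closest to the members' mean. Alternatives were DESeq2 1.42.0, the legacy and likelihood ratio tests, DESeq2-type size factors, pan-fibre scaling, 2 filters, the replicate block, removal of length and GC trends, and leaving out each library. 1 gene of the lists is not reported here.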

Additional observations from a re-analysis of the deposited data

How the results depend on the processing

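*Actn2*, *Myoz2*, *Ldb3* and *Tcap* kept their direction and remained uncalled under all 13 alternatives. *Flnc* had a log2 fold change of 0.32 to 1.16 with each library left out, and was not called in 2 of these 4 fits. The fold change of *Actn3* ran from -0.83 to 1.2 with each library left out, *Myoz1* from -0.48 to 0.46, *Myoz3* from -0.21 to 0.17 and *Myot* from -0.025 to 0.38. *Myoz1* was also negative with the replicate block (-0.011) and with the length and GC trend removed (-0.023), and *Myoz3* was 0.040 with pan-fibre scaling. The log2 ratio of *Actn3* to *Actn2* differed by -1.11 to 1.05 and that of *Myoz1* to *Myoz2* by -0.57 to 0.29 when each library was left out. Members called numbered 0 to 2 in those fits and 1 in the other 9 alternatives. Other Z-disc genes called numbered 10, but 5 with the length and GC trend removed and 2 to 14 with each library left out, with a median fold change from 0.099 to 0.36. The cause was not tested. All genes called numbered 546, 348 to 1107 with each library left out, and 480 with the replicate block. Over all genes tested, same-numbered libraries did not deviate together (correlation of deviations -0.039). That value cannot show whether a subset of genes shared a deviation by replicate number. With the block *Flnc* remained the called member and 9 other Z-disc genes were called. A fit of 2 libraries against 1 assumes that the lone library varies like the others. With 2 libraries a group no sample could be tested as an outlier.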
